A study of Mus musculus with 6 samples.

Results

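Sgk1, the serum- and glucocorticoid-regulated kinase, is described here together with the glucocorticoid receptor gene Nr3c1 and with Fkbp5, Tsc22d3 and Per1, which are widely used as readouts of that receptor. The 5 genes were named with earlier results of these data known. They are read from the array probes that carry one of these symbols alone in the platform annotation. Each gene had 1 probe, so they stand for 5 of 8588 genes tested. Expression was measured with arrays in 2T3 cells, an immortalised mouse pre-osteoblast line, cultured in OptiCells, flat cassettes sealed between membranes that let gas through. Total RNA came from 3 samples turned on a Random Positioning Machine, which keeps changing the direction of gravity and which the labels call simulated microgravity, and from 3 samples kept static. All 6 samples share the cell line and the cassette, no drug or hormone treatment is named in the labels, and the sources used here give neither the length of exposure nor whether the medium held serum or glucocorticoid.

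Glucocorticoids act through the receptor encoded by Nr3c1, which waits in the cytoplasm in a complex of HSP90 chaperones and co-chaperones, moves to the nucleus once it binds hormone, and there binds palindromic DNA elements near its target genes. Sgk1 was named for its rapid induction by serum and by glucocorticoid. Its protein is short-lived, is switched on by phosphorylation downstream of phosphoinositide 3-kinase, and acts on ion channels, transporters and transcription factors. In osteoblasts, glucocorticoids are known to act on differentiation, matrix production and survival, and an excess of them causes bone loss.

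The sequences at the starts of these genes are shown for the palindromic element that the receptor binds. An exact match to its full palindrome lies at an Sgk1 start and at none of the other starts searched. The RefSeq promoter table (GRCm38.p6) gave 12 windows for 4 of the genes, each of 300 bases, from 250 bases before a start to 50 bases after it, with 6 windows for Sgk1. None of the 12 was for Nr3c1. Each was searched on both strands for the 15-base element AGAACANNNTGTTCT, for its arm TGTTCT, which is part of the element, and for the E-box CACGTG, which clock proteins bind. Capitals mark every match.
Sgk1, start with the element (chr10:21993640-21993939, plus strand): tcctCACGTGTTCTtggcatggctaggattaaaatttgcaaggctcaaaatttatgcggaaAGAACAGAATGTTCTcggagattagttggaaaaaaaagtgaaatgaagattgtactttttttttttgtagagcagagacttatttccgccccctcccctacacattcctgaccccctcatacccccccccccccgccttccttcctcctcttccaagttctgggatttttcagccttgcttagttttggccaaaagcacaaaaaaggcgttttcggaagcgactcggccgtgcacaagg
Sgk1, most downstream start (chr10:21994416-21994715, plus strand): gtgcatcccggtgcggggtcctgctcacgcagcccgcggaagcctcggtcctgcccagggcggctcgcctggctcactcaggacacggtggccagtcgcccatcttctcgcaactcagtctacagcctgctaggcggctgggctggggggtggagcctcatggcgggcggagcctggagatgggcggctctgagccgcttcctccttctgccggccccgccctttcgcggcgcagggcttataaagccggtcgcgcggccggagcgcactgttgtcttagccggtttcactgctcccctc
Tsc22d3 (chrX:140600473-140600772, minus strand): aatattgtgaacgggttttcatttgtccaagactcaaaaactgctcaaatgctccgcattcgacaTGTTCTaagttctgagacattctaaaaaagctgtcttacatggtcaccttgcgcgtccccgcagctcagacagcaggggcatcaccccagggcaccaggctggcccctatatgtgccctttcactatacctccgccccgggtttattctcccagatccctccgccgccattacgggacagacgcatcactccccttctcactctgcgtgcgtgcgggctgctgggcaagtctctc
Per1 (chr11:69098699-69098998, plus strand): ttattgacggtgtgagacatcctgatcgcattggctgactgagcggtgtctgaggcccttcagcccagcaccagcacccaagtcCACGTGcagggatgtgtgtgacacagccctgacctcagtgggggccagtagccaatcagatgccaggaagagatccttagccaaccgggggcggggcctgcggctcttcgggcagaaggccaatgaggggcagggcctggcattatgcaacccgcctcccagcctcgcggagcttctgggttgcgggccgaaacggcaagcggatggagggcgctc

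The first sequence shown, the fifth of the 6 Sgk1 windows along the plus strand, holds the full element as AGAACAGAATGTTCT, at chr10:21993701-21993715. It begins 189 bases before the start of that window and 965 bases before the most downstream Sgk1 start, whose own window holds no match of any of the motifs. Of all 32851 promoter windows in the table, 3 (0.00913%) hold the full element. The other two belong to Acnat2 and Gm35041, which had no probe tested here. The arm TGTTCT is common, in 19.0% of all windows. It was found in 3 of the 6 Sgk1 windows and in 1 Tsc22d3 window, where it lies 185 bases before the start. The E-box is held by 7.15% of all windows. One lies 166 bases before the Per1 start shown, one 169 bases before the Fkbp5 start, whose window is not shown, and one in the Sgk1 window with the element, where it overlaps a further arm. These matches describe the letters in these windows, and which Sgk1 start 2T3 cells use was not measured. Inexact forms of the element and elements outside the windows were not searched, so a window without a match does not show that a gene lacks one.

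All levels are intensities divided by the median of their array, and log2 changes are simulated microgravity over static. Arrays agreed closely across probes, with log2 correlations of 0.97 to 0.99 within groups and 0.96 to 0.99 between them. Microgravity 2 and static 2 stood apart in their dim range. They had 6.44% and 9.16% of values at or under 0.1 of the median, against 17.1% to 19.8% on the other arrays, and 163 and 134 empty cells, against 68 to 75. Of the 10 measured osteoblast markers, 2 fell, against 0.198% of all genes (Pth1r and Alpl, the receptor for parathyroid hormone and alkaline phosphatase), though 0 probes passed with any 1 array left out or with the replicate block. The summed level of the 10 was 201 to 255 in simulated microgravity and 308 to 441 in static cells. Most of it came from Sparc and Postn, which did not pass limma's test (limma adjusted p = 0.457 and 0.0930). Of the 14 osteoblast markers listed, 4 had no probe tested. Dmp1 and Phex, markers of late osteoblasts and osteocytes, lay under 0.25 of the median on every array. Among markers of other cell types 0 passed limma's test, with 1 at an unadjusted p under 0.05, in the adipocyte list. Summed adipocyte markers were 35.9 to 41.7 in simulated microgravity and 42.8 to 50.8 in static cells, most of it from Fabp4 and Lpl, while adiponectin (Adipoq), Cd36 and Retn lay under 0.25 on every array. Summed blood cell markers were 10.1 to 16.5 against 14.0 to 17.6, most of it from Cd14 and Lyz2. Cd14 had 10.5 ± 3.39 in simulated microgravity and 13.1 ± 2.34 in static cells, and Lyz2 2.32 ± 0.218 and 2.52 ± 0.463. Ptprc, Itgam and Cd3e lay under 0.25 on every array, and 5 of the 10 listed blood cell markers had no probe tested. Chondrocyte markers summed to 2.73 to 3.05 in simulated microgravity and 2.89 to 3.56 in static cells, muscle markers to 1.28 to 1.56 against 1.32 to 1.49, and endothelial markers to 0.557 to 0.988 against 0.717 to 0.827. The part of these shifts in the values that follow was not tested.

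Sgk1 was the member with the widest gap between the groups. Its level was 7.55, 7.35 and 7.44 times the array median on microgravity 1, 2 and 3, and 3.55, 3.17 and 3.58 on static 1, 2 and 3. All 3 simulated microgravity arrays lay above all 3 static arrays, and the lowest of them was 2.06 times the highest static one. The means were 7.45 ± 0.102 in simulated microgravity and 3.43 ± 0.224 in static cells (SD, n = 3 each), a 2.17-fold difference (log2 change 1.12, SE 0.13). A change in the share of cells expressing a gene and a change in RNA per cell cannot be told apart in these bulk samples. Sgk1 was proposed for study with results of these data known, and this is the only contrast in the labels. These values are therefore a description and carry no test here.

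**Figure D1:**
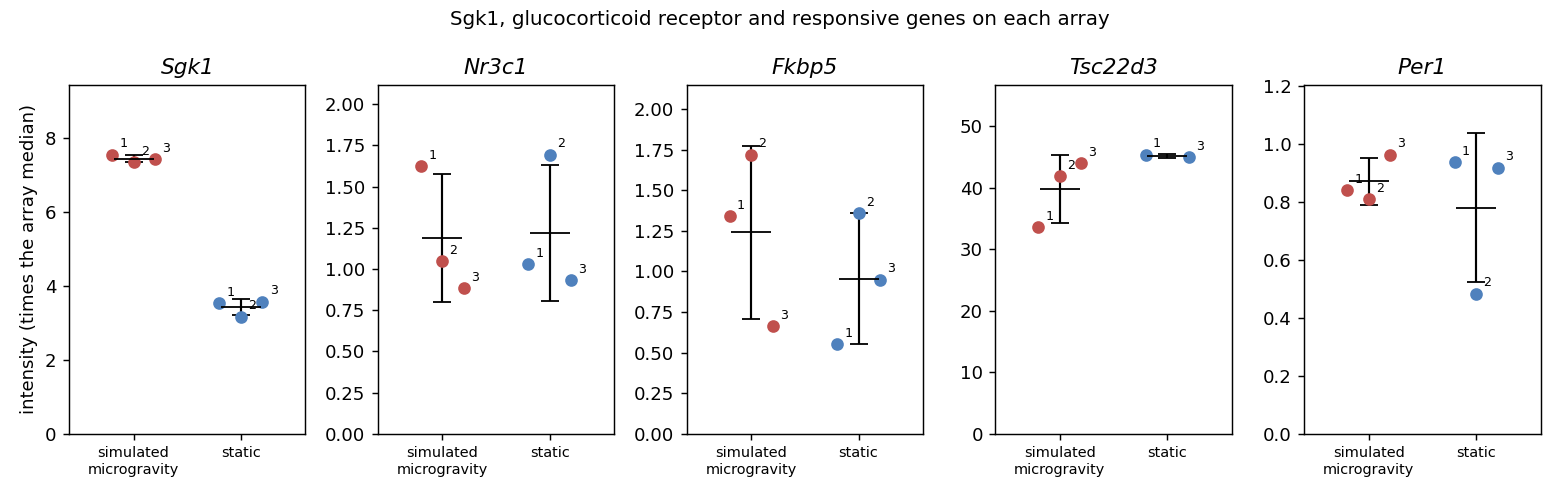
Intensity of each of the 5 genes, in times the array median on a linear axis from 0, on the 3 simulated microgravity arrays (left) and the 3 static arrays (right), with replicate numbers beside the points. Dashes with bars are means ± SD. Sgk1 lies at 7.35 to 7.55 in simulated microgravity and 3.17 to 3.58 in static cells, while Nr3c1, Fkbp5 and Per1 overlap between the groups and Tsc22d3 lacks a value for static 2.

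The spread of Sgk1 within groups was small, which a choice made with results known can favour, so its place among probes is a description. Its SD within groups was 0.069 on the log2 scale, and 2.80% of the 10146 probes tested had a smaller one. Among the 1094 probes whose mean log2 level lay within 0.5 of that of Sgk1, 1.46% had a smaller one. By the size of the log2 change it was not extreme, as 69 probes had a higher one and 1.62% of probes lay at least as far from 0. With any 1 array left out, its log2 change was 1.06 to 1.15.

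**Figure D2:**
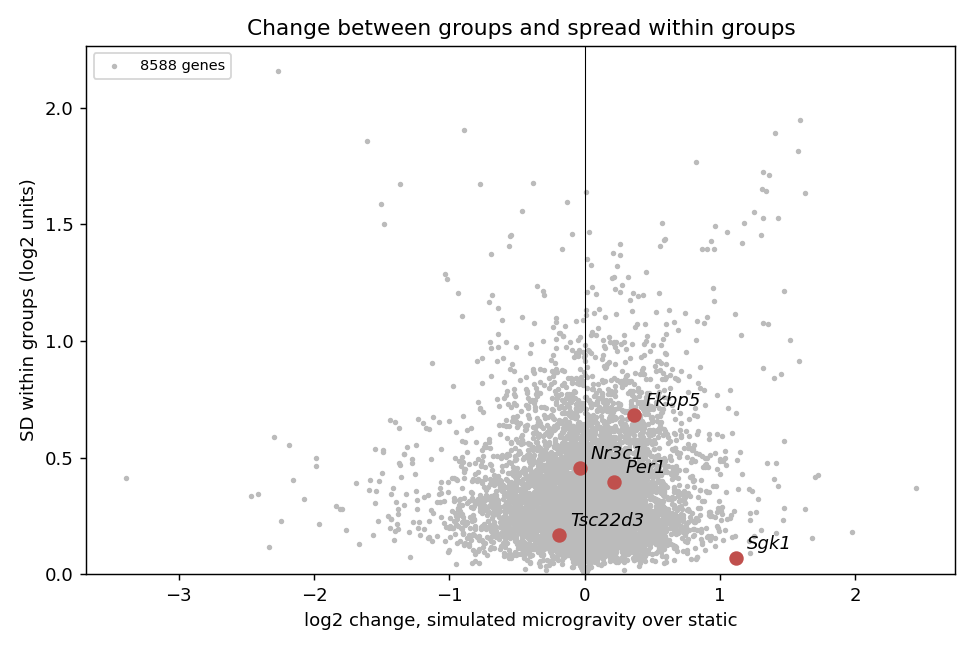
Log2 change of each of 8588 genes, simulated microgravity over static (horizontal axis), against the SD within groups in log2 units (vertical axis), with the 5 genes in red. Sgk1 stands at a log2 change of 1.12 and an SD of 0.069, Fkbp5 at 0.37 and 0.68.

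Nr3c1, the gene for the receptor itself, had 1.62, 1.05 and 0.884 times the array median on microgravity 1, 2 and 3, and 1.03, 1.69 and 0.934 on static 1, 2 and 3. The groups overlapped, with microgravity 1 and static 2 high and the other arrays close together. The means were 1.19 ± 0.389 in simulated microgravity and 1.22 ± 0.414 in static cells (SD, n = 3 each; log2 change -0.04, SE 0.33). Its sign turned with 1 array left out, between -0.29 without microgravity 1 and 0.23 without static 2.

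Fkbp5 encodes a co-chaperone of the receptor that is induced by glucocorticoid and in turn lowers the receptor's hormone binding. It had 1.34, 1.72 and 0.664 times the array median on microgravity 1, 2 and 3, and 0.553, 1.36 and 0.949 on static 1, 2 and 3. Its highest and lowest arrays differed 3.11-fold, the widest range among the 5 genes, and 93.5% of probes had a smaller SD within groups. The means of 1.24 ± 0.534 and 0.954 ± 0.404 for simulated microgravity and static cells (SD, n = 3 each) differed by less than that spread (log2 change 0.37, SE 0.46). The log2 change was 0.019 without static 1, 0.077 without microgravity 2 and 0.76 without microgravity 3.

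Tsc22d3, also known as GILZ, encodes a leucine zipper protein that carries part of the anti-inflammatory action of glucocorticoid. It had 33.6, 41.9 and 43.9 times the array median on microgravity 1, 2 and 3, and 45.3 and 44.9 on static 1 and 3, while the cell of static 2 was empty and the fit used 5 values. The groups did not overlap, with every simulated microgravity array below both static ones. The log2 change was -0.19 (SE 0.19), and without microgravity 1 it was -0.073.

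Per1, a clock gene that is also induced directly by glucocorticoid, had 0.841, 0.808 and 0.962 times the array median on microgravity 1, 2 and 3, and 0.936, 0.484 and 0.918 on static 1, 2 and 3. Static 2 lay apart from the rest of its group and the other arrays lay close together. The means were 0.871 ± 0.0811 in simulated microgravity and 0.779 ± 0.256 in static cells (SD, n = 3 each; log2 change 0.22, SE 0.31), and without static 2 the log2 change was -0.095.

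Sgk1 was thus the 1 gene of the 5 past an adjusted p of 0.05 by limma, a threshold that 0.276% of all probes passed, and it was chosen on this call, which is given as a description. It was not past it with any 1 array left out, with the replicate block, without static 2 and microgravity 2, or with eBayes without the intensity trend. Groups did not overlap for 2 of the 5, Sgk1 higher and Tsc22d3 lower, while 15.7% of all probes showed no overlap. For Tsc22d3 this rests on 3 values against 2, which separate more easily than 3 against 3. Its groups came as close as 43.9 in simulated microgravity and 44.9 in static cells. The other readouts of the receptor had log2 changes of 0.37 for Fkbp5 (SE 0.46), -0.19 for Tsc22d3 (SE 0.19) and 0.22 for Per1 (SE 0.31). With SEs of this size, none of these has a settled direction.

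The probes whose pattern was most like that of Sgk1 were found by the distance between log2 values over the 6 arrays, each centred on its own mean, among 4533 named probes above the array median. The nearest was Kdm6a, a histone demethylase, at a distance of 0.223 log2 units, with 5.94, 6.45 and 5.65 times the array median in simulated microgravity and 3.02, 2.40 and 3.13 in static cells. Fosl1, a transcription factor of the AP-1 family, followed at 0.338, with 2.38, 2.38 and 3.02 in simulated microgravity and 1.09, 1.12 and 1.13 in static cells. Next were Gnpnat1, an enzyme of amino sugar synthesis, at 0.357, the metalloreductase family member Steap1 at 0.365 and Fam136a at 0.374. Their log2 changes were 1.05, 1.02 and 0.83. Since Sgk1 separates the groups, likeness to it selects other probes that separate them.

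Nr3c1 had another pattern, high on microgravity 1 and static 2. Nearest to it were Zeb1, a zinc finger repressor, at 0.341, the RNA-editing enzyme gene Adar at 0.353, Magt1 at 0.414, the small GTPase gene Rhob at 0.418 and Pdlim5 at 0.423. Zeb1 had 2.84, 2.23 and 2.06 times the array median in simulated microgravity and 1.98, 3.06 and 1.81 in static cells. Like Nr3c1, it was highest on static 2 and next highest on microgravity 1, which its choice by likeness to Nr3c1 favoured.

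**Figure D3:**
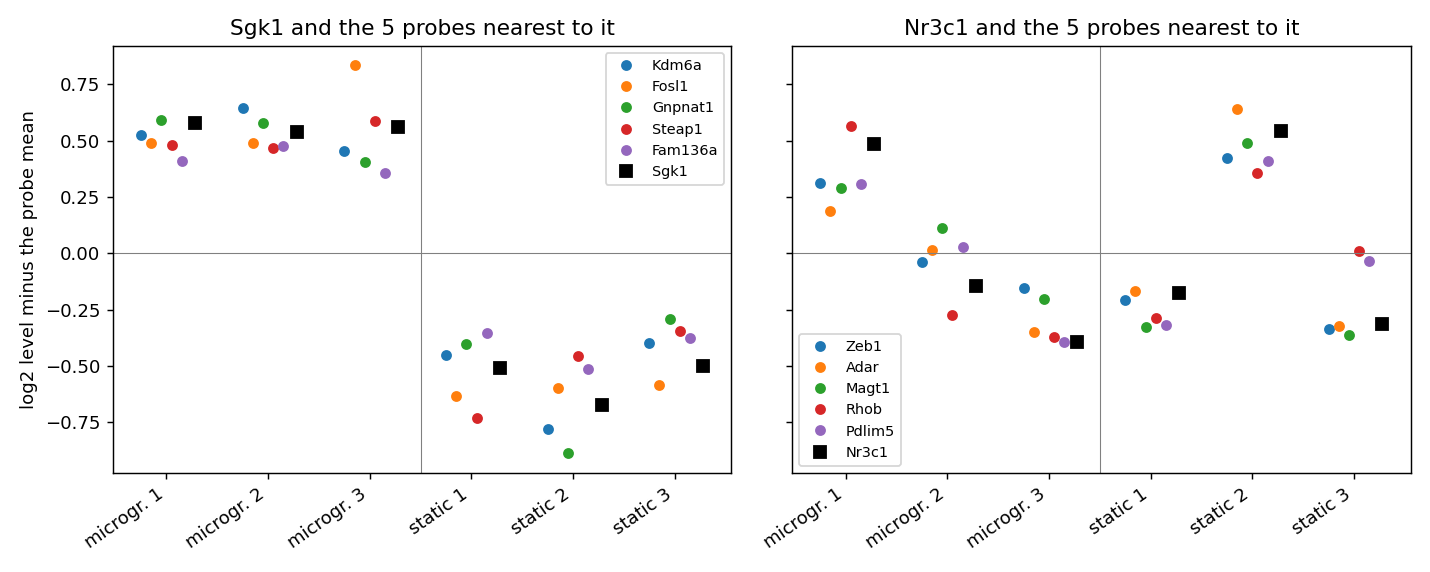
Log2 level minus the probe's own mean on each of the 6 arrays (simulated microgravity left of the line, static right of it) for Sgk1 and Nr3c1 (black squares) and the 5 probes nearest to each (coloured points). The Sgk1 panel separates the groups, and the Nr3c1 panel is high on microgravity 1 and static 2.

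The surroundings of the receptor and the kinase were described with 9 gene lists that hold 224 different measured genes, 12 of them in more than 1 list, with the 5 genes above left out. By limma 0 of the 224 passed an adjusted p of 0.05 over all probes, a threshold that 0.279% of all genes passed. At an unadjusted p under 0.05 there were 11.5% of all genes, 5.79% higher and 5.69% lower in simulated microgravity, and groups did not overlap for 16.6%, 8.51% higher and 8.07% lower. The median log2 change of all genes was 0.046.

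Chaperones and co-chaperones of the receptor mostly had higher values in simulated microgravity. Of 18 measured, 13 were higher and 5 lower, with a median log2 change of 0.21. Groups did not overlap for 7, all of them higher, and 5 had an unadjusted p under 0.05, all higher. Ppid, the cyclophilin that binds the HSP90 complex at the site Fkbp5 also uses, had 30.5, 32.8 and 41.0 times the array median in simulated microgravity and 18.7, 18.6 and 18.0 in static cells (log2 change 0.90, SE 0.16, limma adjusted p = 0.0915). It passed with quantile normalization (limma adjusted p = 0.0389) and with cyclic loess normalization (0.0433), and its adjusted p was up to 0.330 among the alternatives. The chaperone Hsp90aa1 had 57.0 ± 1.69 in simulated microgravity and 43.4 ± 5.85 in static cells (SD, n = 3 each; limma adjusted p = 0.421). The HSP70-HSP90 linker Stip1 had 14.3 ± 2.95 and 9.82 ± 1.98 (limma adjusted p = 0.421), and the co-chaperone Tomm34 3.88 ± 0.206 and 2.98 ± 0.279 (limma adjusted p = 0.400). Fkbp4, a co-chaperone that opposes Fkbp5 and was picked with its values in view, had 9.61 ± 2.30 in simulated microgravity and 7.05 ± 1.38 in static cells (limma adjusted p = 0.622).

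Coregulators of nuclear receptors had a median log2 change of 0.12 over 30 genes, 22 with higher and 8 with lower values, 2 higher and 1 lower at an unadjusted p under 0.05. Nr2f1, an orphan nuclear receptor, had 5.31 ± 0.704 in simulated microgravity and 8.88 ± 0.255 in static cells (log2 change -0.75, SE 0.14, limma adjusted p = 0.105). The methyltransferase Prmt1 and the acetyltransferase Kat2a had log2 changes of 0.58 and 0.73, and the coactivator Ncoa1 0.55 (limma adjusted p = 0.310, 0.414 and 0.590). Other steroid receptors and the enzymes and pumps that set local glucocorticoid (15 measured) had a median of -0.033. At an unadjusted p under 0.05 there were 1 higher and 1 lower. Much of this list was dim. Pgr, Esr1, Cyp11a1, Cyp21a1, Cyp17a1, Hsd3b1, Star and Serpina6 had group means near or under the floor of 0.1. The median was the log2 change of Pgr, at 0.0841 ± 0.0179 in simulated microgravity and 0.0927 ± 0.0142 in static cells. That median therefore rests on values around the floor. Once probes in the lowest 25% by brightness were dropped, 5 genes of this list remained, with a median of 0.078. Hsd11b1, which regenerates active glucocorticoid, was dim, with 0.177, 0.0825 and 0.142 times the array median in simulated microgravity and 0.284, 0.180 and 0.229 in static cells (limma adjusted p = 0.380). The groups did not overlap, but these values lie near the floor of 0.1. Abcb1b, a drug pump that also exports steroids, had 0.787 ± 0.179 and 0.425 ± 0.0821 in simulated microgravity and static cells (limma adjusted p = 0.292). Tspo, a mitochondrial protein long tied to cholesterol import, had 5.14 ± 1.78 and 8.65 ± 2.71, and the oestrogen receptor gene Esr2 had 0.355 ± 0.109 and 0.449 ± 0.0162 (limma adjusted p = 0.476 and 0.804).

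Genes known to be induced by glucocorticoid went both ways. Of 45 measured, 21 had higher and 24 lower values, with a median log2 change of -0.063. Groups did not overlap for 5 higher and 10 lower, and 4 higher and 8 lower had an unadjusted p under 0.05. Sesn1, a sestrin that restrains mTOR signalling, had 2.09, 2.22 and 1.85 times the array median in simulated microgravity and 3.75, 3.44 and 3.70 in static cells (log2 change -0.82, SE 0.15, limma adjusted p = 0.0951). The lipid droplet protein gene Plin4 had 0.272, 0.418 and 0.249 in simulated microgravity and 0.878, 1.33 and 0.810 in static cells (log2 change -1.69, SE 0.31, limma adjusted p = 0.0983). All simulated microgravity arrays lay below all static arrays for both genes, the direction opposite to that of Sgk1. Gadd45a, a stress-induced growth arrest gene, had 55.0, 43.1 and 55.8 in simulated microgravity and 21.2, 30.2 and 12.5 in static cells (log2 change 1.35, SE 0.32, limma adjusted p = 0.173). Anxa1, the anti-inflammatory annexin, had 67.7 ± 7.85 and 107 ± 15.7 in simulated microgravity and static cells (SD, n = 3 each; limma adjusted p = 0.246).

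The other well-known targets of the receptor described next, named after their values were seen, had log2 changes of -0.57 to 0.58. Further genes of the list lay outside this range on both sides, such as Tbl1xr1 at -1.06 and Hif3a at 0.65. Cebpd, a transcription factor induced early by glucocorticoid, had 76.8 ± 5.46 in simulated microgravity and 79.2 ± 6.78 in static cells. The phosphatase Dusp1 had 2.83 ± 0.570 and 2.55 ± 0.359, and glutamine synthetase (Glul) 7.92 ± 1.69 and 8.96 ± 2.78. The zinc finger factor Klf9 had 14.0 ± 2.93 in simulated microgravity and 10.1 ± 2.81 in static cells. In Cebpd, Dusp1, Glul and Klf9 the groups overlapped, and their limma adjusted p-values were 0.636 to 0.977. Ddit4, an mTOR inhibitor, had 5.50 ± 0.497 and 3.71 ± 0.630 in simulated microgravity and static cells, with no overlap (limma adjusted p = 0.284), and the NF-kappaB inhibitor Nfkbia had 16.5 ± 3.14 and 24.4 ± 4.71, also with no overlap (limma adjusted p = 0.377).

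Genes known to be repressed by glucocorticoid also went both ways, 18 of 29 with higher and 11 with lower values (median log2 change 0.10). At an unadjusted p under 0.05 there were 3 higher and 5 lower. Groups did not overlap for 2 higher and 5 lower, 24.1% of the list against 16.6% of all genes. Several genes with higher values lay near the floor of 0.1, such as Tnf, Irf8, Il11, Mmp9 and Mmp13, as did Igf1 among those with lower values. With the dimmest 25% of probes left out, 21 genes remained, with a median log2 change of 0.035. The interferon-regulated genes Irf1 and Cxcl10, a transcription factor and a chemokine, had 4.97 ± 0.295 and 3.17 ± 0.406 in simulated microgravity and 7.10 ± 0.531 and 5.01 ± 0.643 in static cells (limma adjusted p = 0.191 and 0.192). The adhesion molecule Vcam1 had 6.61 ± 1.37 and 10.4 ± 1.62 in simulated microgravity and static cells (limma adjusted p = 0.298). Il1b, the cytokine interleukin 1 beta, was dim, at 0.261 ± 0.0389 and 0.124 ± 0.0227 (limma adjusted p = 0.105), so its log2 change of 1.07 rests on values near the floor. Il6, a cytokine chosen for mention with its values in view, had 16.2 ± 1.84 in simulated microgravity and 16.8 ± 2.69 in static cells (log2 change -0.047, limma adjusted p = 0.977).

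**Figure D4:**
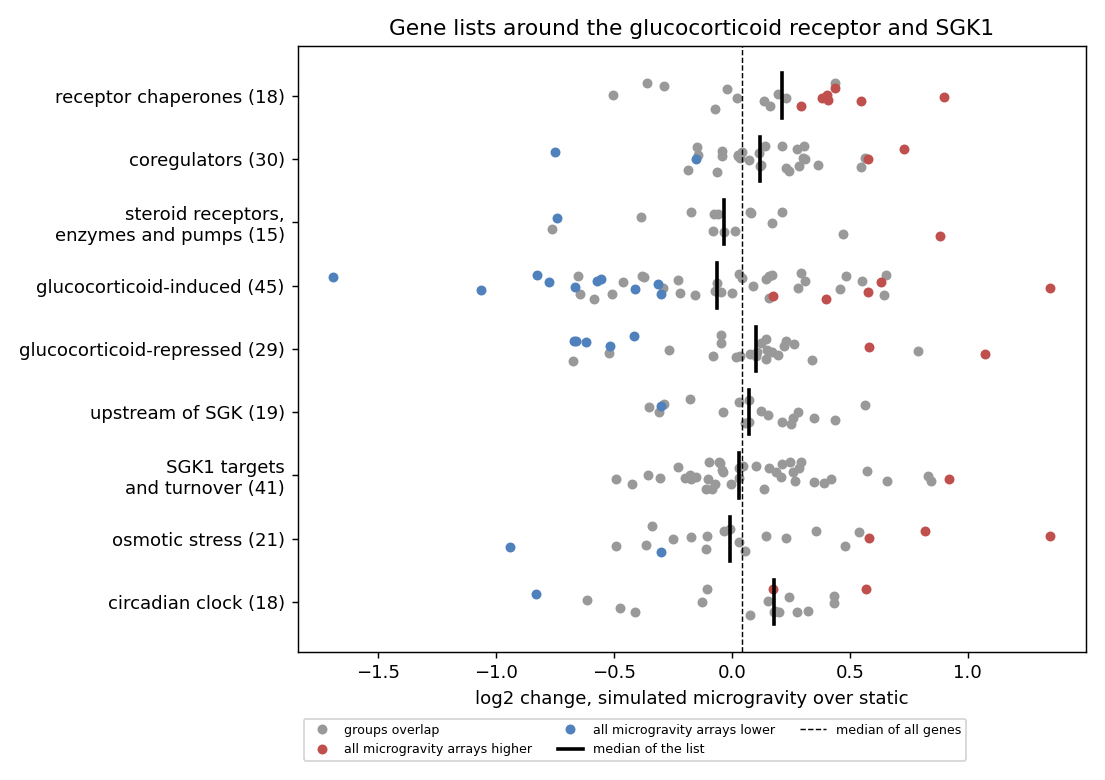
Log2 change, simulated microgravity over static, of each measured gene in the 9 lists (points, with the number of genes in brackets), with the median of each list (black bar) and of all genes (dashed line, 0.046). Red and blue points are genes whose groups do not overlap. They are all higher among receptor chaperones and lie on both sides among glucocorticoid-induced and glucocorticoid-repressed genes.

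The list of kinases and adaptors that switch on SGK kinases had a median near that of all genes. It also held the lipid phosphatases Inpp5d and Inppl1, the kinases Akt1 and Akt2, and Sgk2. Of 19 measured, 0 had an unadjusted p under 0.05 by limma, and the log2 changes lay between -0.35 and 0.57 with a median of 0.074. The examples with the smallest p were the phosphoinositide 3-kinase subunits Pik3cb and Pik3cd, the growth factor receptor Igf1r, and Inpp5d. Their log2 changes were 0.44, 0.21, -0.30 and 0.57 (limma adjusted p = 0.775 to 0.851). Pik3cd was dim, with 0.121 ± 0.0269 in simulated microgravity and 0.0981 ± 0.0177 in static cells, around the floor of 0.1. Inpp5d rose above that floor on microgravity 2 alone (0.324), so its log2 change, the highest of the list, rests on that array. Sgk2, a close relative of Sgk1 chosen for mention with its values in view, lay at 0.0648 ± 0.0460 in simulated microgravity and 0.0763 ± 0.0231 in static cells, around or under the floor of 0.1, so no fold is given. Sgk3 had no probe tested here.

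Substrates and targets of SGK1 action, with proteins of its turnover, had 22 of 41 genes with higher and 19 with lower values and a median log2 change of 0.032, and 3 higher had an unadjusted p under 0.05. Groups did not overlap for 1 of them, Slc1a5, a glutamine transporter, with 2.94, 2.18 and 2.24 times the array median in simulated microgravity and 1.02, 1.41 and 1.47 in static cells (log2 change 0.92, SE 0.23, limma adjusted p = 0.180). The large amino acid transporter Slc7a5 had 25.9 ± 5.57 and 15.1 ± 6.09 in simulated microgravity and static cells, the calcium channel Trpv6 0.212 ± 0.0412 and 0.143 ± 0.0344, and the Ran-binding protein Ranbp1 47.0 ± 4.62 and 38.8 ± 6.19 (limma adjusted p = 0.440, 0.456 and 0.722). Trpv6 was dim, near the floor of 0.1, and its log2 change was 0.16 to 0.76 among the alternatives. Ndrg1, whose protein is the usual reporter of SGK1 activity, had 13.5 ± 3.13 in simulated microgravity and 10.5 ± 3.56 in static cells. Nedd4l, the ubiquitin ligase that SGK1 restrains, had 3.11 ± 1.09 and 3.07 ± 0.852. Both were named after their values were seen, and their groups overlapped (limma adjusted p = 0.839 and 1.00). Phosphorylation, by which SGK1 acts on them, was not measured.

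Osmotic stress induces Sgk1 in many cells. Of 21 genes of osmotic stress and cell volume, 10 had higher and 11 lower values, with a median log2 change of -0.0067, and 3 higher and 1 lower had an unadjusted p under 0.05. Besides Gadd45a these were the chloride transporter Clcn3, with 0.725 ± 0.0272 and 0.418 ± 0.0965 in simulated microgravity and static cells, Tsc22d2, a relative of Tsc22d3, with 18.6 ± 3.58 and 12.3 ± 1.76, and the calcium-binding protein S100a4, with 77.5 ± 12.6 and 150 ± 34.0 (limma adjusted p = 0.268, 0.321 and 0.185). Slc5a3 and Slc6a6, osmolyte carriers named after their values were seen, had 0.854 ± 0.0212 and 0.273 ± 0.0629 in simulated microgravity, and 0.922 ± 0.0819 and 0.406 ± 0.194 in static cells (limma adjusted p = 0.931 and 0.843).

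Clock genes other than Per1 had a median log2 change of 0.18 over 18 genes, 12 with higher and 6 with lower values, and 1 higher and 1 lower had an unadjusted p under 0.05. The output factor Dbp had 2.60, 3.03 and 3.98 times the array median in simulated microgravity and 7.24, 5.32 and 4.56 in static cells (log2 change -0.83, SE 0.24, limma adjusted p = 0.245). The repressor Cry1 had 3.41, 4.53 and 3.09 in simulated microgravity and 1.90, 2.62 and 2.92 in static cells (log2 change 0.57, SE 0.23, limma adjusted p = 0.440). The groups of both were apart, Dbp lower and Cry1 higher. The activator Arntl had 7.86 ± 1.11 and 6.46 ± 0.600 in simulated microgravity and static cells, and Noct 4.33 ± 1.36 and 3.13 ± 0.434 (limma adjusted p = 0.664 and 0.682). The sources used here do not give the time of day at which the samples were taken.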

How the data were processed

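The authors deposited a table of linear intensities, 1 per probe and array, for 10500 probes on 6 arrays of mouse 2T3 cells. The sources used here do not say how these intensities were scanned and scaled. Array medians differed by at most 2.07%, and no further scaling between arrays was applied. Intensities were divided by the array median, floored at 0.1 and put on the log2 scale, which understates changes of dim probes. The 10146 probes kept had at least 2 values per group and rose above the floor on some array.

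Groups were compared with limma 3.58.1 in R 4.3.3 (lmFit, eBayes with trend, 2-sided, Benjamini-Hochberg over all probes, threshold 0.05), tested on simulated data. SEs are from this fit. The labels do not say that samples came from separate cultures, so the p-values rest on a spread that may be technical, and 3 arrays per group limit the precision. Of 10500 probes, 8983 had 1 gene symbol, and a gene stood for its probe with the highest mean. The genes and lists were chosen with earlier results of these data known. Named list genes are the up to 4 of each list with the smallest p, unless said otherwise. Alternatives changed the normalization, floor, filter, variance model, array weights, block and arrays used.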

Additional observations from a re-analysis of the deposited data

How the results depend on the processing

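The log2 change of Sgk1 was 1.06 to 1.15 in all 17 alternatives run, and it was past the threshold in 8 of them. No value of Fkbp5 (0.019 to 0.76) or Tsc22d3 (-0.28 to -0.073) changed sign, while those of Nr3c1 (-0.29 to 0.31) and Per1 (-0.095 to 0.38) did. Tsc22d3 could not be fitted without static 1 or static 3, which left 1 static value. The count of probes past the threshold, 28 in the reported fit, was 54 with quantile normalization, 57 with cyclic loess normalization, 53 with the floor at 0.05 of the median, 59 with no floor, 59 with the dimmest 25% left out and 115 when arrays were weighted. It was 0 with any 1 array left out (761 to 968 probes at an unadjusted p under 0.05), and 0 without static 2 and microgravity 2, an alternative chosen after seeing the data, so Sgk1 passed in none of these. It was also 0 with the replicate block. Deviations of same-numbered arrays correlated at -0.21, 0.46 and -0.18 for numbers 1, 2 and 3, so the numbers were not taken to pair the samples. Only the arrays numbered 2 correlated best with their own number, while microgravity 1 did so with static 3 (0.38) and microgravity 3 with static 1 (0.66). Of list genes, 1 chaperone (Ppid) passed with quantile and 1 with cyclic loess normalization. With array weights 1 coregulator (Nr2f1), 2 glucocorticoid-induced genes (Sesn1 and Plin4) and 1 glucocorticoid-repressed gene (Il1b) passed, and with no floor 1 glucocorticoid-induced gene (Plin4) did. The median of the steroid receptor, enzyme and pump list was -0.073 with cyclic loess normalization, -0.077 with the floor at 0.05, 0.028 with the floor at 0.2, 0.078 with the dimmest 25% left out, -0.0761 without static 2 and microgravity 2, and -0.095 to 0.044 with 1 array left out. That of coregulators was 0.080 to 0.23 with 1 array left out, and that of glucocorticoid-repressed genes -0.052 to 0.11 with 1 array left out, 0.035 with the dimmest 25% left out and 0.025 with array weights. That of SGK1 targets was 0.10 without static 2 and microgravity 2. The cause of these shifts was not tested.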
